A study of Mus musculus with 20 samples.

Results

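The Wnt ligands, their Frizzled receptors and their secreted inhibitors were followed in the apical cochlear coil of Bai1 tm2b mice. All genes of the deposited tables with a symbol that begins with Wnt, Fzd, Sfrp or Dkk followed by a digit were taken, which gave 37 of 24411 genes. They comprised 19 Wnt ligands, 10 Frizzled receptors (Fzd), 4 secreted Frizzled-related proteins (Sfrp) and 4 Dickkopf proteins (Dkk). RNA-seq had been performed on 20 libraries, 6 from postnatal day 22 (P22) and 14 from P7, each from a pool of 4 mice according to the methods (3 to 4 in the supplementary legends). Mice of both sexes were used in the study, and the sex of the mice in each pool is not stated. Control libraries (Het) came from Bai1 tm2b/+ mice, which carry a single tm2b allele, and mutant libraries (Homo) from Bai1 tm2b/tm2b littermates, both on a C57BL/6N background that also carries the Cdh23 ahl allele of age-related hearing loss. The tm2b allele lacks exons 3 and 4 of *Adgrb1*, the gene of the adhesion receptor BAI1, in all cells and carries a lacZ cassette in their place, so that the long isoform is lost and the controls hold a single intact copy. The samples were whole microdissected tissue, sensory epithelium with spiral ganglion, so that fewer cells of a type and less RNA per cell cannot be told apart.

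Wnt ligands are lipid-modified secreted proteins that bind Frizzled receptors. With *Lrp5* or *Lrp6* as co-receptor this binding stabilizes beta-catenin, which turns on target genes with Tcf and Lef factors, and with Ror or *Ptk7* it acts on the planar polarity of cells. Sfrp proteins carry a Frizzled-like domain and bind Wnt ligands outside the cell, and *Dkk1* and *Dkk2* act on the Lrp co-receptors. In the developing cochlea the pathway is known for its roles in the proliferation of prosensory cells and in the orientation of hair cells.

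Estimated counts were held for the 6 P22 libraries (35725985 to 40350413 per library) and for the P7 libraries numbered 5 to 7 in both genotypes (31108551 to 58807173), while those numbered 1 to 4 were held as TPM rounded to whole numbers, for which depth is unknown. *Adgrb1* itself, counted over all isoforms, was at 154, 152 and 167 CPM (counts scaled to library size by TMM) in the Het and at 103, 100.2 and 105 CPM in the Homo libraries of P22, without overlap. In the P7 libraries in counts it was at 32.1, 56.4 and 36 CPM in Het and at 25.9, 21.6 and 31.2 CPM in Homo, and in those in rounded TPM at 10, 12, 8 and 7 in Het and at 9, 9, 10 and 12 in Homo, so that the last set did not separate the genotypes. Defining markers of spiral ganglion neurons, hair cells and supporting cells were all detected at both ages. At P7, Homo replicate 5 stood apart, with 45.1 CPM over 7 marrow neutrophil markers (4.8 to 7.8 in the other 5 libraries in counts) and 136 CPM over 5 proliferation markers (60 to 82.5 in the others).

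The promoters of 3 genes on which the results turn are shown: *Wnt6*, the ligand called between genotypes at P22, *Sfrp2*, the member with the largest fall between P7 and P22, and *Sfrp5*, the member with the largest rise. RefSeq promoters of GRCm38.p6 were at hand for 25 of the 37 members. The 250 bases before the start site are given 5′ to 3′ on the strand of the gene, with CG dinucleotides in capitals.
*Wnt6*, plus strand, chr1:74771642-74771891: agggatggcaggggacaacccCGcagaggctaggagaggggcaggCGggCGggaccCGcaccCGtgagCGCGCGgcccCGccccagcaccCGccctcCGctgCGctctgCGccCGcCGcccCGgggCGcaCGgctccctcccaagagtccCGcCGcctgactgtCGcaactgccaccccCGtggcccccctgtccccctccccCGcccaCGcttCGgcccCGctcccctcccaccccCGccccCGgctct
*Sfrp2*, plus strand, chr3:83766071-83766320: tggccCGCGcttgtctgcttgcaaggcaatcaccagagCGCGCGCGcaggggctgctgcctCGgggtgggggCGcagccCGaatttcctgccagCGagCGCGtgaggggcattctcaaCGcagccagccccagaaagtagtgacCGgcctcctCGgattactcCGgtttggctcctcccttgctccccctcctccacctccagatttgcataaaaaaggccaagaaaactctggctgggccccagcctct
*Sfrp5*, minus strand, chr19:42202253-42202502: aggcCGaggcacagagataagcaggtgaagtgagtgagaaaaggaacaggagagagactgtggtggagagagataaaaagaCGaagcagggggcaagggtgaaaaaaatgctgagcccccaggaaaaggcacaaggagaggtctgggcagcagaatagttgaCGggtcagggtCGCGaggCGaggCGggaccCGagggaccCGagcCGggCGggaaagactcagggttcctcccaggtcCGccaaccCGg
The *Wnt6* window held 28 CG dinucleotides, the *Sfrp2* window 16 and the *Sfrp5* window 13, against a median of 6 over all 32851 promoters. As many as 28 were found in 7.61% of promoters, as many as 16 in 25.4% and as many as 13 in 31.5%. The letters CTTTG, the core to which Tcf and Lef factors are known to bind, or CAAAG, the same core on the other strand, were in none of the 3 windows and in 48.6% of all promoters.

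The members ranged from the undetected to the highly expressed. Levels of different genes were compared as CPM per kilobase of the longest coding transcript (mean ± SD over both genotypes, n = 6 libraries per age in counts). At P22 the highest ligands were *Wnt5a*, which acts mainly without beta-catenin, at 14.2 ± 1.62 and *Wnt6* at 9.29 ± 2.14. *Wnt7b* followed at 7.25 ± 0.756 and *Wnt4* at 6.46 ± 0.632, and these neighbours overlapped in their range. At P7 *Wnt5a* was again the highest ligand at 33.5 ± 2.59, followed by *Wnt7b* at 16.2 ± 3.42 and *Wnt7a* at 15.3 ± 3.06, which overlapped.

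Among the receptors *Fzd9* led at P22 with 31 ± 3.29 per kilobase, more than any other Frizzled gene, of which *Fzd7* (11.9 ± 0.816), *Fzd2* (11.8 ± 1.08) and *Fzd1* (11.3 ± 0.747) overlapped. At P7 the order was another, with *Fzd7* (41.7 ± 5.16) and *Fzd1* (36.2 ± 4.51) highest and *Fzd9* at 27.7 ± 4.69. Of the inhibitors, *Sfrp1* stood far above all members in the P7 libraries in counts with 110 ± 24.2. In the P7 libraries in rounded TPM, a unit that is per length too, *Sfrp1* (129 ± 18.3 TPM) and *Wnt5a* (127 ± 17.1 TPM) overlapped (n = 8). *Sfrp5* (26.7 ± 2.31) and *Sfrp4* (22.8 ± 5.38) were the highest Sfrp genes at P22. *Dkk3*, a divergent Dickkopf protein, was at 43.4 ± 5.81 at P7 and at 70.6 ± 3.96 at P22, which made it the highest of all 37 members at P22.

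*Wnt1*, *Wnt3a*, *Wnt8a* and *Dkk4* were nearly absent. *Wnt1* and *Wnt8a* had at most 2 counts in any library, *Dkk4* had 1 count in a single library, and *Wnt3a* had 0 counts at P22 and 1 to 5 at P7. A count of 0 in a library allows up to 3 counts, which covers counting error only. *Wnt10a* had 0 to 7 counts per library although its start lies only 6193 bases beyond the end of *Wnt6* on chromosome 1. On chromosome 11, *Wnt9a* lies 16175 bases from the nearly absent *Wnt3a*, and *Wnt3* lies 24328 bases from *Wnt9b*. *Wnt9b*, singled out after its values were seen, had 39 and 52 counts in P7 Homo replicates 6 and 7 and 2 to 21 in the other 10 libraries in counts.

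The P22 and P7 libraries held in counts were compared to ask how the members change between P7, before the onset of hearing, and P22, with genotype as a term. Age, table and sequencing run coincide and cannot be told apart. Of the 37 members 31 passed the filter on low counts, 4 were called higher and 16 lower at P22, against 25.9% and 28.6% of all 16314 genes tested. A call required an adjusted p under 0.05 over all genes, an absolute log2 difference over 0.5 and a standard error below 0.5. The P22 libraries lay above all P7 libraries for 4 members and below all for 19, against 30.6% and 32% of all genes. The median log2 difference was -1.10 over the 31 members and -0.05 over all genes.

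Most Frizzled receptors were lower at P22. All 10 passed the filter and 8 were called lower, against 28.6% of all genes, with a median log2 difference of -1.19. For *Fzd7* the P7 libraries were at 199, 171 and 210.0 CPM in Het and at 155, 215 and 184 CPM in Homo, and the P22 libraries at 53.2, 56.4 and 51.2 CPM in Het and at 48.2, 58.4 and 55.3 CPM in Homo. The ages were thus far apart in both genotypes, and *Fzd7* fell by 1.81 ± 0.083 on the log2 scale (± SE, edgeR adjusted p = 2.01e-10).

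For *Fzd10* the P7 values were 51.4, 48.1 and 58.6 CPM in Het and 36.6, 56.4 and 53.1 CPM in Homo, and the P22 values 13.4, 12.9 and 9.01 CPM in Het and 12, 12.3 and 15 CPM in Homo. It showed the largest fall of the receptors, 2.03 ± 0.129 log2 units (log2 difference -2.03, edgeR adjusted p = 4.15e-09). *Fzd4*, the receptor of Norrin in vessels of the retina and the inner ear, was at 60.2, 40.3 and 55.5 CPM in Het and at 41.5, 64.3 and 50.6 CPM in Homo at P7. At P22 it was at 14.3, 14.3 and 17 CPM in Het and at 14.5, 18 and 16 CPM in Homo, a log2 difference of -1.73 ± 0.12 (edgeR adjusted p = 1.05e-08).

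*Fzd1* was at 148, 166 and 175 CPM in Het and at 120.0, 153 and 149.8 CPM in Homo at P7. The P22 values were 49.96, 45.4 and 44.4 CPM in Het and 44.7, 49.1 and 51.8 CPM in Homo (log2 difference -1.67 ± 0.0801, edgeR adjusted p = 2.88e-10). *Fzd2*, *Fzd5*, *Fzd6* and *Fzd8* fell by log2 differences of -1.10 to -1.20. In *Fzd5*, 17.8% of the exon bases are shared with an antisense gene, and the sources used here do not say whether the counting used strand.

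*Fzd3* and *Fzd9* were not called. *Fzd3*, a core polarity receptor, had a log2 difference of -0.28 ± 0.0593 that missed the limit on size. *Fzd9* was at 60.4, 61.2 and 65.4 CPM in Het and at 46.2, 78.5 and 69.3 CPM in Homo at P7. In the P22 libraries it was at 72.2, 71.9 and 64.9 CPM in Het and at 77.4, 59.7 and 79.8 CPM in Homo, a log2 difference of 0.16 ± 0.109 (edgeR adjusted p = 0.187). The ages overlapped for *Fzd9*, whose share of the summed Frizzled level was 14.6% ± 1.23 at P7 and 34.4% ± 2.87 at P22 (SD, n = 6).

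**Figure D1:**
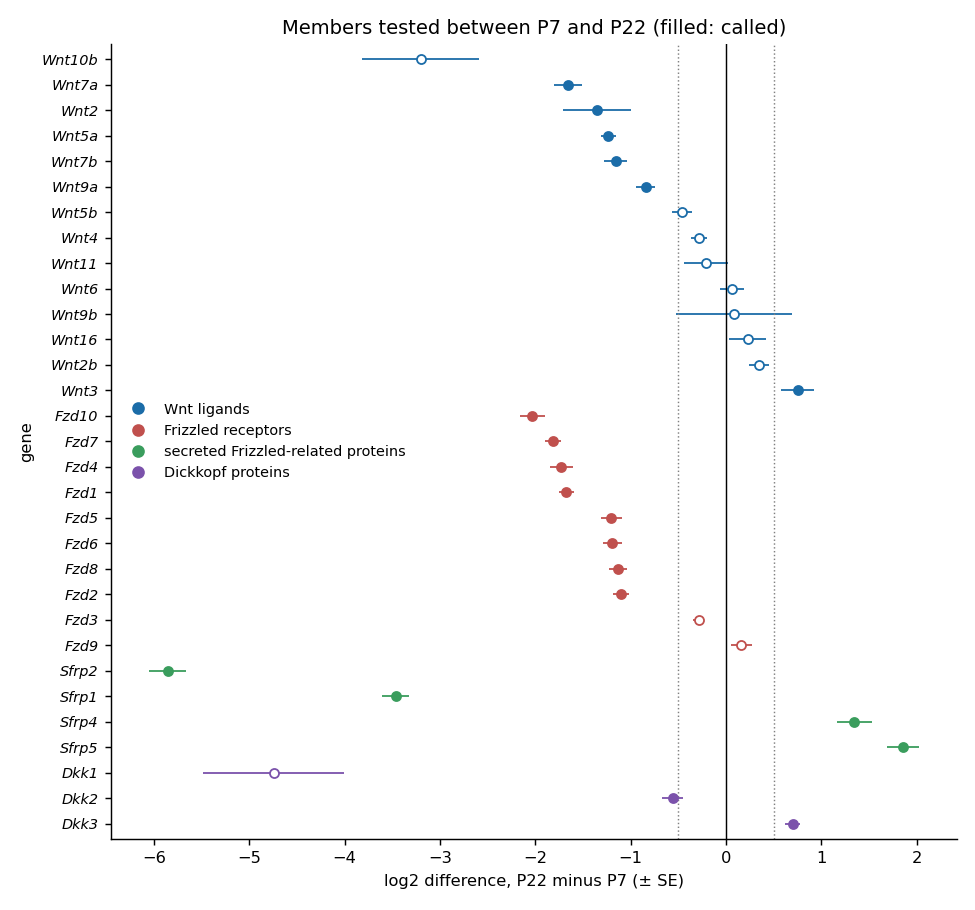
Log2 difference between P22 and P7 (± SE, edgeR, 6 against 6 libraries in counts) of the 31 members tested, coloured by family, with filled points for calls and dotted lines at 0.5 and -0.5. Frizzled receptors lie between -2.03 and 0.16, while the 4 Sfrp genes divide into 2 at -3.46 and below and 2 at 1.35 and above. The latter turn negative under scaling to neuron markers, which moves the median of all genes to -2.64.

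The Sfrp genes moved in opposite directions. *Sfrp2* (chromosome 3, 83766321 to 83774316) was at 39.5, 40.8 and 51.1 CPM in the Het and at 31.4, 52.5 and 47.2 CPM in the Homo libraries of P7. Its P22 level was 0.767, 0.88 and 0.733 CPM in Het and 0.353, 0.849 and 0.949 CPM in Homo, from 13 to 34 counts per library. Its log2 difference was -5.85 ± 0.191 (edgeR adjusted p = 1.48e-11), the largest fall of the called members. For *Sfrp2*, 16.1% of the exon bases overlap a gene on the opposite strand.

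*Sfrp1* (chromosome 8, 23411502 to 23449632) was at 531, 398 and 501 CPM in Het and at 324, 625 and 513 CPM in Homo at P7. At P22 it was at 48, 44.2 and 40.02 CPM in Het and at 40.5, 42.5 and 47 CPM in Homo, all far below the lowest P7 library. The log2 difference of *Sfrp1* was -3.46 ± 0.143 (edgeR adjusted p = 8.2e-11).

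*Sfrp5* (chromosome 19, 42197971 to 42202252) was at 13.3, 21.4 and 18 CPM in Het and at 11.4, 8.54 and 12.7 CPM in Homo at P7. Its P22 level was 47.4, 44.8 and 49.5 CPM in Het and 55.1, 51.3 and 56.1 CPM in Homo, above every P7 library. *Sfrp5* rose by 1.86 ± 0.168 log2 units (edgeR adjusted p = 1.62e-07), the largest rise of the members.

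*Sfrp4* was at 38.8, 43 and 39.9 CPM in Het and at 44, 25.4 and 24.8 CPM in Homo at P7. At P22 it was at 70.3, 87 and 73.9 CPM in Het and at 127, 109 and 86.4 CPM in Homo, again without overlap between the ages. *Sfrp4* rose by 1.35 ± 0.181 log2 units (edgeR adjusted p = 1.02e-05). This rise rests on the P7 libraries in counts alone. In the P7 libraries in rounded TPM *Sfrp4* was at 41 to 60 TPM (mean 48.8), beside a mean of 53.4 TPM for *Fzd9*, which was not called with age. Per kilobase the means of *Sfrp4* and *Fzd9* were 8.89 and 27.7 in the P7 libraries in counts and 22.8 and 31 at P22. Relative to *Fzd9*, *Sfrp4* was thus not lower in that P7 set than at P22.

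The makeup of the Sfrp family was therefore also expressed as the share of each gene in the summed level per kilobase of the family in the same library, which does not depend on the scaling between libraries. *Sfrp1* made up 73.7% ± 4.49 at P7 and 16.9% ± 2.47 at P22 (SD, n = 6 libraries in counts), *Sfrp2* 14.7% ± 1.21 and 0.643% ± 0.198, *Sfrp4* 6.31% ± 2.5 and 37.7% ± 5.02, and *Sfrp5* 5.22% ± 1.99 and 44.7% ± 3.07. The ages did not overlap for any of them (exact 2-sided permutation test, p = 0.00216 for each, the smallest p that 6 against 6 libraries allow). The levels in the same libraries were already known, and the 4 shares depend on each other, so that this p adds no separate support. Of the 29 such shares computed over the 4 families, those of *Dkk3*, *Fzd9* and *Wnt6*, among others, had the same p. In the P7 libraries in rounded TPM, *Sfrp1* made up 54.5% ± 1.67, *Sfrp2* 13.8% ± 1.46, *Sfrp4* 20.7% ± 2.38 and *Sfrp5* 11% ± 2.54 (n = 8). The P7 sets differed from each other for *Sfrp1* and *Sfrp4*, whose ranges did not overlap. Batch, unit and the length used coincide in these sets and cannot be told apart. The P22 libraries lay outside the range of both P7 sets for all 4 genes.

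**Figure D2:**
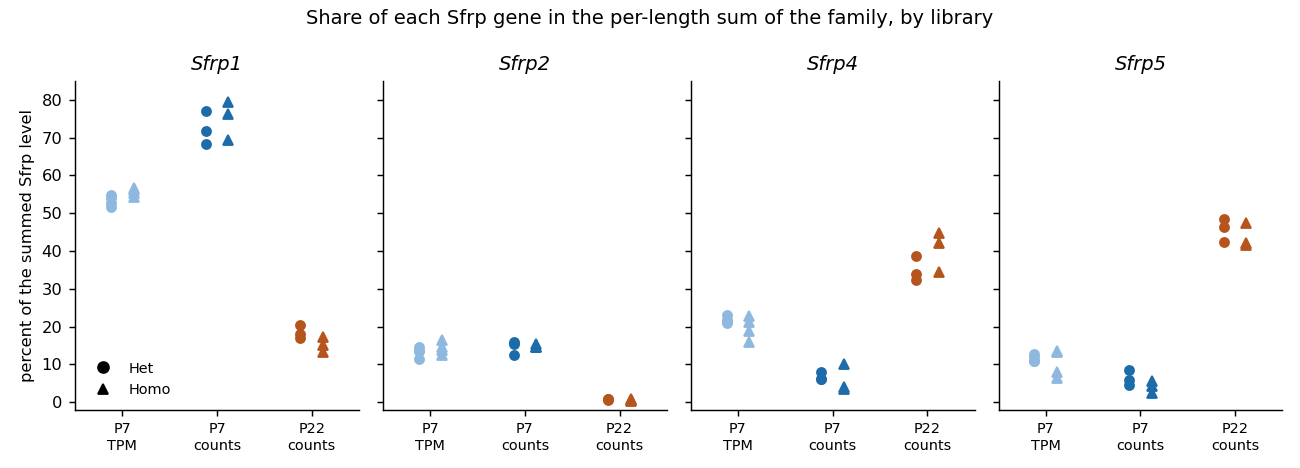
Percent of the summed per-length level of the Sfrp family held by each gene in every library, for P7 libraries in rounded TPM (n = 8), P7 libraries in counts (n = 6) and P22 libraries in counts (n = 6), with circles for Het and triangles for Homo. At P22 *Sfrp1* lies between 13.3% and 20.4% and *Sfrp5* between 41.6% and 48.4%, apart from both P7 sets.

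Dickkopf genes differed among themselves. *Dkk3* was at 145, 149 and 155 CPM in Het and at 112, 172 and 141 CPM in Homo at P7. The P22 libraries were at 243, 245 and 250.2 CPM in Het and at 221, 219 and 244 CPM in Homo (log2 difference 0.70 ± 0.081, edgeR adjusted p = 2.18e-06). *Dkk2* was at 41.4, 38.7 and 41.4 CPM in Het and at 36.3, 51.5 and 47.9 CPM in Homo at P7, and at 35.7, 29.4 and 28.3 CPM in Het and at 24.4, 24.5 and 32.7 CPM in Homo at P22. *Dkk2* fell by 0.56 ± 0.11 on the log2 scale (log2 difference -0.56, edgeR adjusted p = 0.000352), close to the limit on size, and was not called without P7 Homo replicate 6 (-0.49), in the Het libraries alone (-0.34) or under scaling to hair cell markers (0.16).

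*Dkk1*, a classical inhibitor of beta-catenin signalling, had 39, 89 and 40 counts in Het and 167, 21 and 21 counts in Homo at P7. It had 3, 0 and 3 counts in Het and 1, 3 and 0 counts in Homo at P22. Its adjusted p passed (edgeR, 4.08e-05), but the standard error of 0.737 missed the limit. The 167 counts of *Dkk1* in P7 Homo replicate 5 coincided with 163 counts of *Wnt10b* in the same library, against 19 to 66 in the other P7 libraries, and both genes, singled out after their values were seen, were called lower at P22 when that library was left out. The part of the neutrophil and proliferation markers of that library in these values was not tested.

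Of 14 ligands tested 1 rose and 5 fell by the same call, against 25.9% of all 16314 genes called higher and 28.6% called lower. *Wnt5a* was at 252, 246 and 254 CPM in Het and at 219, 224 and 212 CPM in Homo at P7. At P22 it was at 87.2, 94.5 and 94.1 CPM in Het and at 102, 120.3 and 102 CPM in Homo, less than the lowest P7 library by far. The log2 difference of *Wnt5a* was -1.23 ± 0.079 (edgeR adjusted p = 4.61e-09).

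*Wnt7a* and *Wnt7b*, ligands with a known role in vessels of the nervous system, both fell. *Wnt7a* was at 53.9, 41.8 and 51.8 CPM in Het and at 32.4, 59.3 and 52.2 CPM in Homo at P7, and at 14.4, 13.2 and 12.6 CPM in Het and at 14.6, 19.3 and 19.1 CPM in Homo at P22 (log2 difference -1.65 ± 0.146, edgeR adjusted p = 1.25e-07). *Wnt7b* was at 55.9, 46 and 52.1 CPM in Het and at 40.03, 72.1 and 63.4 CPM in Homo at P7, and at 22.2, 23.2 and 24.8 CPM in Het and at 24.9, 23.3 and 29.4 CPM in Homo at P22 (-1.15 ± 0.12, edgeR adjusted p = 6.93e-07). The ages did not overlap for either gene.

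*Wnt9a* and *Wnt2* were the other ligands that fell, by log2 differences of -0.84 ± 0.103 and -1.35 ± 0.356. *Wnt3*, a ligand of the beta-catenin branch, was the one that rose, from 1.94, 4.28 and 3.03 CPM in Het and 3.4, 3.24 and 3.92 CPM in Homo at P7 to 4.79, 4.65 and 4.81 CPM in Het and 5.21, 8.04 and 6.36 CPM in Homo at P22. The log2 difference of *Wnt3* was 0.75 ± 0.172 (edgeR adjusted p = 0.00111), and the call was lost in the Het libraries alone (0.65, edgeR adjusted p = 0.0524) and with library totals (0.47). *Wnt2* was not called in the Homo libraries alone. *Wnt6*, *Wnt9b*, *Wnt11*, *Wnt16*, *Wnt2b*, *Wnt4*, *Wnt5b* and *Wnt10b* were not called. Without *Wnt10b*, which missed the limit on the standard error alone, their log2 differences ran from -0.46 (*Wnt5b*) to 0.35 (*Wnt2b*), and that of *Wnt6* was 0.065 ± 0.13.

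**Figure D3:**
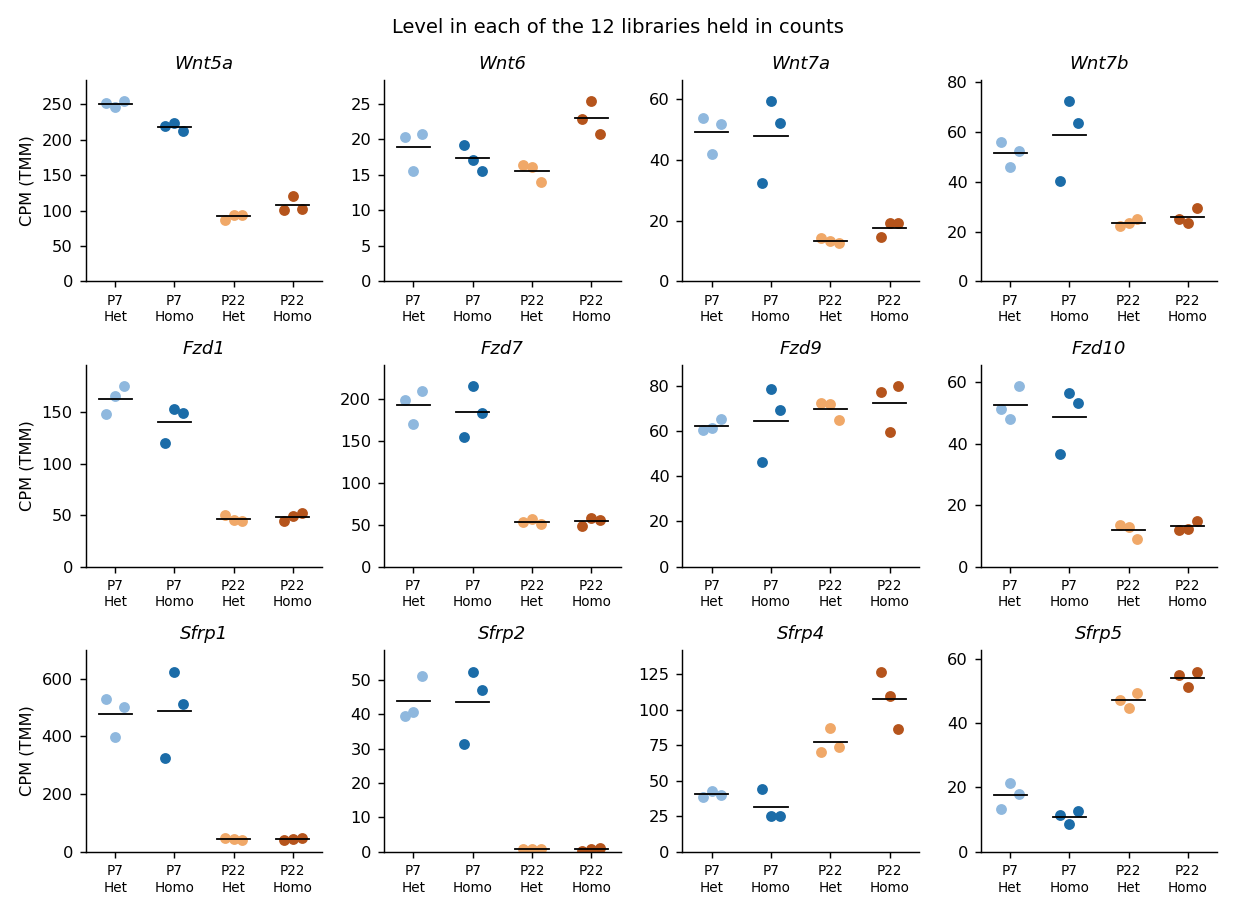
CPM (TMM scaling, linear axes that start at 0) of 12 members in each of the 12 libraries in counts, grouped by age and genotype, with a line at the mean of the 3 libraries. *Fzd1*, *Fzd7*, *Fzd10*, *Sfrp1*, *Sfrp2* and the ligands *Wnt5a*, *Wnt7a* and *Wnt7b* lie lower at P22, *Sfrp4* and *Sfrp5* lie higher on this scale, and for *Wnt6* the P22 Homo libraries (20.8 to 25.3 CPM) stand above the P22 Het libraries (14 to 16.4 CPM).

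The tissue changed widely between these sets of libraries. The summed level of 10 spiral ganglion neuron markers was 1288 to 3155 CPM at P7 and 14102 to 21602 CPM at P22, with 9 called higher and 1 lower. The 8 supporting cell markers summed to 5562 to 10533 CPM at P7 and to 1010 to 1280 CPM at P22. They did not move as one, since 5 of them were called lower and 2 higher. The 6 Schwann cell markers summed to 5046 to 14807 CPM at P7 and to 19364 to 24052 CPM at P22, and 5 of them rose. All 7 bone markers and all 5 proliferation markers fell as well. Scaling the libraries to the neuron markers shifted the median of all genes to -2.64, and *Sfrp5* (-0.68), *Sfrp4* (-1.28), *Dkk3* (-1.87) and *Wnt3* (-1.75) then had negative log2 differences. Scaling to 8 hair cell markers shifted the median of all genes to 0.65, and *Sfrp1*, *Sfrp2*, *Wnt5a*, *Wnt7a* and *Fzd1*, *Fzd4*, *Fzd5*, *Fzd7* and *Fzd10* were the 9 members still called lower. The part of cell makeup in these differences was not tested.

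The other genes of the pathway, in lists written down with the comparisons, were read in the same fit. The counts of each list stand against 25.9% of all 16314 genes called higher and 28.6% called lower, with a median of -0.05. Of 7 feedback targets of beta-catenin all 7 fell, with a median log2 difference of -2.02. The largest fall was that of *Ccn4*, listed under its older symbol *Wisp1* (-3.72 ± 0.105, edgeR adjusted p = 5.05e-12), and *Axin2*, the most widely used target of the pathway, fell by a log2 difference of -0.97 ± 0.0869. Of 6 co-receptors 4 fell and none rose, led by *Ror2*, a receptor of *Wnt5a* (-2.65 ± 0.129), with a median of -1.75.

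Of 11 other secreted or surface inhibitors 10 were tested, 8 fell and 2 rose, with a median of -1.65. *Notum*, an enzyme that removes the lipid of Wnt ligands, showed the largest fall (-3.10 ± 0.163), and *Kremen2*, a receptor of Dickkopf proteins, the largest rise (3.43 ± 0.461). Of 9 genes of R-spondins and receptor turnover 8 were tested, with a median of -0.65. Of these 4 fell, led by *Lgr6* (-2.81 ± 0.191), and *Rspo1* rose (0.96 ± 0.0771). Of the pair of Wnt secretion genes, *Wls*, the carrier of Wnt ligands, fell (-1.39 ± 0.0771) and *Porcn*, the enzyme that adds their lipid, rose (0.87 ± 0.064).

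Of 4 Norrin and Wnt7 co-receptor genes 3 fell, led by *Adgra2* (-1.72 ± 0.0952), with a median of -1.03. Of 15 genes of the cytoplasmic and nuclear pathway 6 fell, led by *Tcf7l1* (-1.47 ± 0.0679), and *Gsk3a* rose (0.97 ± 0.0487), with a median of -0.42. Of 13 planar cell polarity genes 6 fell, led by *Celsr1* (-2.51 ± 0.104), and *Celsr3* rose (1.85 ± 0.104), with a median of -0.45.

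**Figure D4:**
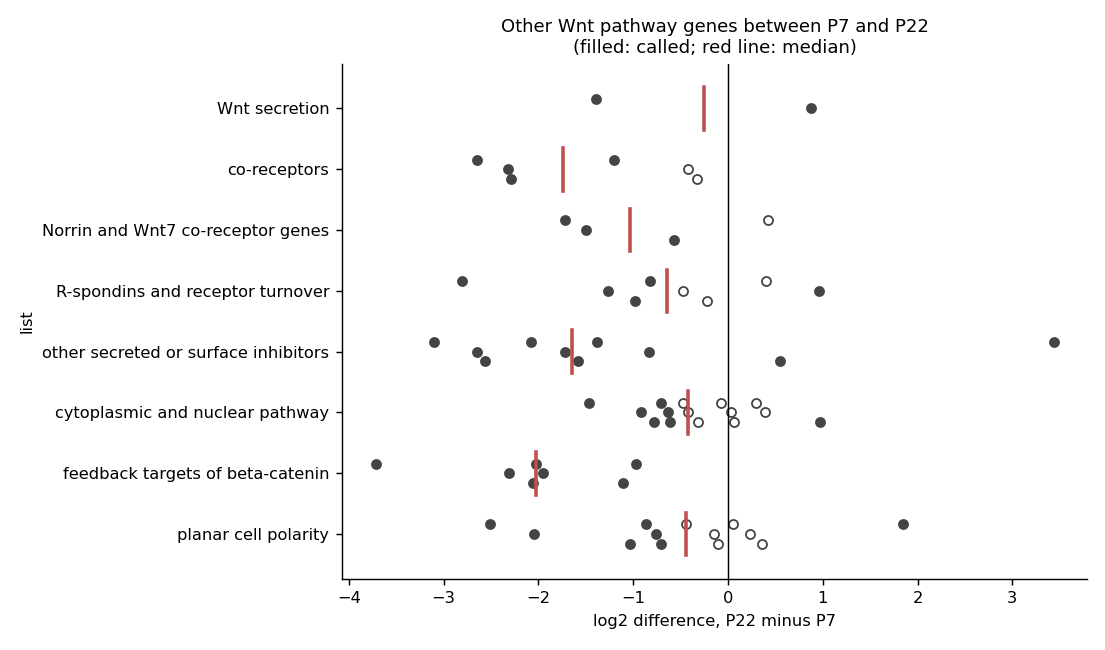
Log2 difference between P22 and P7 (edgeR, libraries in counts) of each tested gene of 8 Wnt pathway lists, with filled points for calls and a red line at the median of the list. All 7 feedback targets of beta-catenin and the 6 co-receptors lie below 0, and *Kremen2* lies farthest to the right at 3.43.

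The genotypes were then compared at P22, to see whether loss of long BAI1 went with a change of the members after the onset of hearing. Of 29 members that passed the filter 1 was called higher and 0 lower in Homo, against 1.74% and 1.41% of all 15443 genes tested, so that a single call among the members is near the background. At an unadjusted p under 0.05 there were 10 of the 29 members and 4431 of the 15443 genes. Homo libraries lay above all Het libraries for 8 members and below all for 0, against 15.8% and 17.9% of all genes.

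*Wnt6*, a ligand known from epithelia and the neural crest, was the member called. *Wnt6* (ENSMUSG00000033227.7, plus strand of chromosome 1, 74771892 to 74785322) was at 16.4, 16.2 and 14 CPM in the Het and at 22.9, 25.3 and 20.8 CPM in the Homo libraries. The genotypes did not overlap, and *Wnt6* was higher in Homo by a log2 difference of 0.58 ± 0.0999 (edgeR adjusted p = 0.0066). The difference was between 0.51 and 0.64 when any one library was left out.

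At P7 the levels of *Wnt6* overlapped between the genotypes. It was at 20.3, 15.6 and 20.8 CPM in Het and at 19.2, 17.1 and 15.5 CPM in Homo among the libraries in counts (log2 difference -0.10 ± 0.148, edgeR adjusted p = 0.929). In rounded TPM it was at 21, 15, 11 and 15 in Het and at 27, 17, 16 and 19 in Homo (0.23 ± 0.183, limma adjusted p = 0.388). The difference of the genotype effect between the ages was 0.70 ± 0.18 for *Wnt6* on the log2 scale (edgeR adjusted p = 0.239), which did not pass.

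*Sfrp4* was at 70.3, 87 and 73.9 CPM in Het and at 127, 109 and 86.4 CPM in Homo at P22, where the lowest Homo library, 86.4, and the highest Het library, 87, were close. The genotypes crossed on this scale, set over 12 libraries, and did not overlap on the scale of the 6 P22 libraries alone. The log2 difference of *Sfrp4*, 0.49 ± 0.123 (edgeR adjusted p = 0.0298), missed the limit on size. It ranged from 0.36 to 0.62 with any one library left out.

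*Wnt7a* was at 14.4, 13.2 and 12.6 CPM in Het and at 14.6, 19.3 and 19.1 CPM in Homo (log2 difference 0.41 ± 0.121, edgeR adjusted p = 0.0512). *Wnt5a* was at 87.2, 94.5 and 94.1 CPM in Het and at 102, 120.3 and 102 CPM in Homo (0.24 ± 0.0752, edgeR adjusted p = 0.0644). For both the Homo libraries lay above the Het libraries, with adjusted p just over the threshold.

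*Wnt16*, a ligand best known from bone, was at 4.05, 3.05 and 3.08 CPM in Het and at 5.45, 5.78 and 4.07 CPM in Homo (log2 difference 0.60 ± 0.194, edgeR adjusted p = 0.0707). *Wnt4* was at 25.9, 24.9 and 24.3 CPM in Het and at 31, 29.5 and 27.1 CPM in Homo (0.23 ± 0.0763, edgeR adjusted p = 0.0754). Neither passed, although no Homo library lay below a Het library.

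Of the 13 ligands tested 12 had a positive and 1 a negative log2 difference at P22, with a median of 0.30, against a median of 0.01 over all genes. The 10 receptors had a median of 0.06 (-0.19 to 0.21), the 4 Sfrp genes of 0.09, and both tested Dickkopf genes were negative (*Dkk2* -0.19 ± 0.127, *Dkk3* -0.10 ± 0.0587). Under scaling to the hair cell markers the median of all genes moved to -0.46 and 25 of the 29 members were negative, *Wnt5a*, *Wnt7a*, *Wnt3*, *Wnt4* and *Sfrp5* among them, with a median of -0.32.

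Marker levels differed between the genotypes of P22 as well. The 10 neuron markers summed to 19390 to 21602 CPM in Het and to 14102 to 15899.9 CPM in Homo, and the 8 hair cell markers to 262 to 281 CPM and to 347 to 437 CPM. The 8 supporting cell markers summed to 1010 to 1149 CPM in Het and to 1222 to 1280 CPM in Homo, although 2 of them were called higher and 1 lower. The 7 markers of central glia and brain neurons summed to 361 to 473 CPM in Het and to 535 to 815 CPM in Homo. The 7 marrow neutrophil markers summed to 17.8, 7.3 and 8 CPM in Het and to 55.5, 52.1 and 8.1 CPM in Homo, the 6 macrophage markers to 148, 146 and 127 CPM and to 173, 191 and 147 CPM, and the 5 proliferation markers to 7, 5.8 and 5.2 CPM and to 17.7, 11.6 and 5.7 CPM. *Sfrp4* and *Wnt16* were likewise highest in Homo replicates 1 and 2, and the part of those cells in their values was not tested. Scaling to the neuron markers moved the median of all genes to 0.30, with 2241 genes called higher, *Wnt6* among them, and 50 lower. That shift raises every gene, so that the call of *Wnt6* could not be lost there. Under scaling to 8 markers of otic mesenchyme and fibrocytes (median of all genes -0.06) *Wnt6* was called higher. Under scaling to the hair cell markers (median -0.46, 52 genes called higher and 5919 lower) *Wnt6* was not called (log2 difference 0.10). That shift lowers every gene, so that a difference of 0.58 could not stay over the limit of 0.5 there. The part of cell makeup in the difference of *Wnt6* was not tested.

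**Figure D5:**
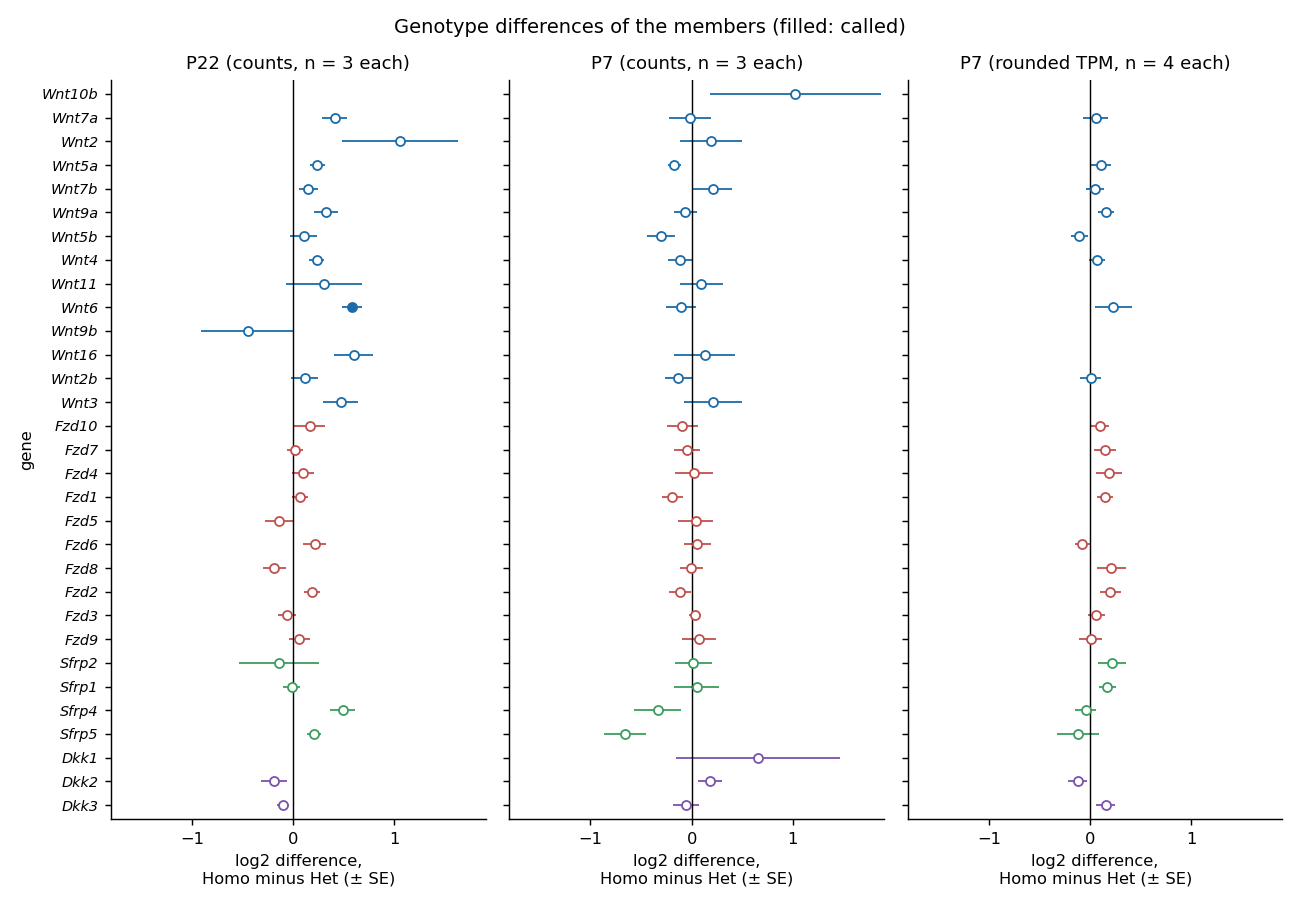
Log2 difference between Homo and Het (± SE) of each member tested at P22 (edgeR), in the P7 libraries in counts (edgeR) and in the P7 libraries in rounded TPM (limma), with filled points for calls. *Wnt6* at P22 (0.58) is the filled point. Under scaling to hair cell markers, which moves the median of all genes to -0.46, the signs of *Wnt5a*, *Wnt7a*, *Wnt3*, *Wnt4* and *Sfrp5* at P22 turn negative.

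At P7 the comparison asked whether the members differed before the onset of hearing. In the libraries in counts 30 members were tested and edgeR called 0 of them and 0% of all 16026 genes in either direction, with 2 members and 763 genes at an unadjusted p under 0.05. DESeq2 called 44 genes higher and 4 lower, and 0 members. Homo libraries lay above all Het libraries for 0 members and below all for 3, against 923 and 743 of the 16026 genes. *Sfrp5* was at 13.3, 21.4 and 18 CPM in Het and at 11.4, 8.54 and 12.7 CPM in Homo, without overlap, at a log2 difference of -0.66 ± 0.207 (edgeR adjusted p = 0.894). *Wnt5a* was at 252, 246 and 254 CPM in Het and at 219, 224 and 212 CPM in Homo (-0.17 ± 0.0659, edgeR adjusted p = 0.894). The remaining member without overlap was *Wnt5b*, also lower in Homo (-0.31 ± 0.136, edgeR adjusted p = 0.894).

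In the P7 libraries in rounded TPM 23 members had a mean of at least 5 TPM. Limma called 0 of them, against 0.647% higher and 0.145% lower of 11740 genes, and 0 members but 4048 of these genes had an unadjusted p under 0.05. *Sfrp5* was at 28, 25, 23 and 25 TPM in Het and at 17, 34, 35 and 19 TPM in Homo, where the Homo libraries lay on both sides of all Het libraries (log2 difference -0.12 ± 0.21, limma adjusted p = 0.714). In the same order the 6 Schwann cell markers summed to 19544, 18399, 17234 and 16249 TPM in Het and to 11204, 21891, 22401 and 13447 TPM in Homo, lowest in the 2 Homo libraries with the lowest *Sfrp5*. Among the P7 libraries in counts the highest and the lowest library for *Sfrp5*, Het replicate 6 and Homo replicate 6, were also those for the Schwann cell markers (14807 and 5046 CPM). Other libraries went the other way. At P7 Het replicate 5 was above Homo replicate 5 for *Sfrp5* and below it for these markers (8795 against 10179 CPM). At P22 replicate 3 of each genotype had the highest *Sfrp5* and the lowest Schwann cell sum (19364 CPM in Het and 20280.5 CPM in Homo). The part of these cells in the level of *Sfrp5* was not tested. *Wnt5a* was at 120, 109, 126 and 112 TPM in Het and at 120, 162, 140 and 126 TPM in Homo (0.11 ± 0.0978, limma adjusted p = 0.442), opposite in sign to the libraries in counts. The genotypes did not overlap for *Wnt9a*, which did not pass, at 10, 10, 8 and 9 TPM in Het and at 12, 11, 11 and 11 TPM in Homo (0.16 ± 0.0772, limma adjusted p = 0.17). In this set 1 of the 23 members lay higher without overlap and 0 lower, against 1085 and 1041 of the 11740 genes.

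The difference of the genotype effect between P22 and P7 was called by edgeR for 0 of 31 members, against 0% higher and 0.0306% lower of 16314 genes, with 8 members and 1666 genes at an unadjusted p under 0.05. The smallest adjusted p values were those of *Wnt5a* (0.43 ± 0.104, edgeR adjusted p = 0.222) and *Sfrp5* (0.88 ± 0.224, edgeR adjusted p = 0.233), followed by that of *Wnt6* (edgeR adjusted p = 0.239). DESeq2 called *Sfrp5*, and edgeR called *Sfrp4* when P7 Homo replicate 5 was left out. A p above the threshold does not show that the genotype effect was equal at both ages.

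Pathway genes outside the 4 families gave few calls by genotype. At P22 *Draxin*, a secreted inhibitor that also guides axons, was higher in Homo, at 2.52 to 3.8 CPM in Het and at 4.69 to 6.08 CPM in Homo (log2 difference 0.72 ± 0.193, edgeR adjusted p = 0.0359), and none of the 7 feedback targets of beta-catenin was called, with a median of 0.11. At P7 the planar polarity gene *Celsr1* was called higher in Homo in rounded TPM, at 4 to 7 TPM in Het and at 9 to 11 TPM in Homo (0.62 ± 0.126, limma adjusted p = 0.0434). That set gave 0 calls over all genes, *Celsr1* included, with a replicate block, with a minimum mean of 1 TPM, with no filter, and without any one of replicates 2, 3 and 4 of either genotype. In the P7 libraries in counts *Celsr1* overlapped between the genotypes (log2 difference 0.0029 ± 0.162).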

How the data were processed

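Cochlear apical coils were microdissected, poly A libraries were sequenced as paired-end reads on an Illumina NovaSeq, and the authors mapped the reads to mm10 and counted them per gene with STAR and Salmon in the nf-core RNA pipeline. For P22 and for P7 replicates 5 to 7, the tables the authors deposited hold estimated counts of each gene, not normalized. For P7 replicates 1 to 4, the deposited values were a score that sums to 999644 to 999777 per library and was treated as TPM rounded to whole numbers. The annotation release and the strand setting are not given in the sources used here.

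Counts were rounded, filtered with filterByExpr, scaled by TMM and compared by quasi-likelihood in edgeR 4.0.16 (R 4.3.3). Rounded TPM were scaled by TMM and tested with limma 3.58.1 on log2 values after adding 1, keeping genes whose mean reached 5 TPM. A fold change on this scale understates that of low genes. The TPM printed per library are those deposited, before this scaling. Without the scaling limma called 284 genes higher and 9 lower (76 and 17 as reported), and 0 members. DESeq2 1.42.0 was an alternative. The adjusted p values are by Benjamini-Hochberg over all genes tested. The edgeR and limma comparisons were each run on simulated data with known differences, while DESeq2, the marker scalings and the family shares were not. CPM were computed on a TMM scale shared by the 12 libraries in counts, and lengths were taken from GENCODE M21 (GRCm38). P7 sets in different units were not joined.

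The members and lists were chosen with earlier results of these data known. Values are given in every library for *Adgrb1*, for members called by genotype, for the 2 highest per family and age, for up to 5 largest rises and falls with age, and for up to 6 members with the smallest p under 0.05 and no overlap at P22; the other members are given by range and count, and pathway genes where called by genotype or leading their list with age. Members named beyond this rule were chosen after their values were seen. Pools are not stated to be separate litters, so that p values measure the spread between libraries. No column of values was left unused. Isoforms were not analysed here.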

Additional observations from a re-analysis of the deposited data

Results flagged for a closer look

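In 4 of 46 groups of 4 P7 libraries in rounded TPM (23 members in each genotype), 1 library stood far from the other 3 for a member, where chance flags about 1 in 20 groups. *Dkk2* was at 24 TPM in Het replicate 1, against 18 to 19 in the other Het libraries. Het replicate 3 was at 63 TPM for *Fzd9*, against 47 to 48, and at 10 TPM for *Wnt5b*, against 11 in each of the others. *Wnt9a* was at 12 TPM in Homo replicate 1, against 11 in each of the others. For *Wnt5b* and *Wnt9a* the gap is a single unit of the rounded scale. The cause was not tested.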

How the results depend on the processing

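The members called higher by genotype at P22 were 1 as reported and 2 with DESeq2 (with *Wnt16*), with the adjusted p alone (with *Sfrp4*) and with library totals, 9 with scaling to neuron markers and 0 with scaling to hair cell markers, which gave 5 called lower, and 1 to 3 with any one library left out (3 without Homo replicate 1 or 3). Under scaling to hair cell markers, chosen like the other marker scalings and the library totals after the data were seen, *Wnt5a* (-0.24), *Sfrp5* (-0.26), *Wnt3* (-0.019), *Wnt7a* (-0.077) and *Wnt4* (-0.23) turned negative at P22 and *Dkk2* turned positive with age (0.16). With age, the members called higher were 4 as reported, 2 with library totals, 0 with neuron scaling and 8 with hair cell scaling, and those called lower 28 with neuron scaling and 9 with hair cell scaling. Neuron scaling reversed *Sfrp5* (-0.68), *Sfrp4* (-1.28), *Dkk3* (-1.87) and *Wnt3* (-1.75). These scalings shift all genes, with a median of -0.46 at P22 under hair cell scaling and of -2.64 with age under neuron scaling. Without any one library, 4 members stayed called higher by count and 15 to 18 lower. For the difference of the genotype effect, 1 member was called with DESeq2 and 0 to 1 with any one library left out (1 without P7 Homo replicate 5). The counts by genotype at P7 were 0 in every alternative run.

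With a replicate block the members called were 1 at P22 and 0 in both P7 sets, and the block changed no call of a member. Over all genes it gave 261 called higher and 205 lower at P22 (269 and 218 as reported) and 0 in rounded TPM (76 and 17 as reported), where the call of *Celsr1* was lost. Deviations of libraries with the same number correlated at -0.23 to 0.081, and those of libraries with different numbers at -0.35 to 0.39. Not every library correlated best with its own number. With 3 or 4 libraries per genotype these correlations cannot decide whether the numbers pair the libraries.

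Genes with few counts, such as *Dkk1*, *Wnt10b*, *Wnt2* and *Wnt9b*, had standard errors by genotype of up to 0.845, and the largest, those of *Wnt10b* and *Dkk1* at P7, came with the high counts of both in Homo replicate 5. Rounding to whole TPM limits members under 10 TPM.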
